A study of Mus musculus with 4 samples.

Results

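The S100 genes encode small calcium-binding proteins, and 7 of them were followed here in C2C12 cells, a mouse myoblast line that forms multinucleated myotubes when serum is lowered. The members were S100a1, S100a4, S100a6, S100a10, S100a11, S100a13 and S100b, found by their symbols, and each of the 7 had 1 entry in every table, out of 24850 named entries in the total RNA tables and 24992 in the polyA tables. They were selected as a set on their FPKM values and changes in these tables, so the values below are a description and carry no test.

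There were 4 RNA-seq libraries. MB was a library of proliferating myoblasts, labelled as 24 h before differentiation medium, and MT was a library of cells after 72 h in that medium. Both were total RNA from which ribosomal RNA had been removed. The si-NC and si-hnRNPL libraries were polyA-selected RNA from cells that had received a scrambled control siRNA or an siRNA against hnRNPL, an RNA-binding protein that acts in splicing and transcription, and had then spent 48 h in differentiation medium. All 4 came from the C2C12 line, which is a single established line, and no library carried a further allele or agent. With 1 library per condition there was no replicate check, so each value is given with the 95% interval that Cufflinks deposited, which covers counting and read assignment but not differences between cultures. FPKM counts sequenced fragments per kilobase of transcript, scaled to the size of the library, so levels of different genes can be compared inside a library. The total RNA and polyA tables were normalized separately, and changes were computed only within each pair.

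An S100 protein usually works as a dimer. Each subunit has a pair of EF hands, helix-loop-helix folds that hold calcium in the loop, and binding of calcium opens a surface that takes up target proteins such as annexins and myosins. In muscle, S100A1 is the best known member and binds the ryanodine receptor and the sarcoplasmic calcium pump. S100A4 binds non-muscle myosin heavy chain and is known from motile cells, S100A6 (calcyclin) binds the ubiquitin-linked adaptor CacyBP, and S100A10 (p11) and S100A11 bind annexins A2 and A1. S100A13 takes part in the secretion of proteins that lack a signal peptide. S100B is a classical marker of glia and a ligand of the receptor RAGE.

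The calcium loop at the C-terminal end is a shared feature of these proteins, and its coding sequence is shown for the 6 genes of chromosome 3 because S100a10 departs from the others at positions that hold calcium. The stretches were read from the mm9 genome through the GENCODE M1 transcripts, 5′ to 3′ on the strand of the gene, and lie in the last coding exon. They have 36 bases for 12 residues, with the codons of residues 1, 3, 5 and 12, whose side chains hold calcium in a canonical loop, in capitals.
S100a1 (mm9 chr3:90315206-90315241, minus strand): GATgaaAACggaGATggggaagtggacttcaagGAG
S100a11 (mm9 chr3:93329959-93329994, plus strand): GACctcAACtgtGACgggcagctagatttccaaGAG
S100a4 (mm9 chr3:90409707-90409742, plus strand): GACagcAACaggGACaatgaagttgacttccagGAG
S100a6 (mm9 chr3:90418155-90418190, plus strand): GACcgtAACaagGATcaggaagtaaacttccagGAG
S100a13 (mm9 chr3:90328311-90328346, plus strand): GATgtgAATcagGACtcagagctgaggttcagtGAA
S100a10 (mm9 chr3:93368210-93368245, plus strand): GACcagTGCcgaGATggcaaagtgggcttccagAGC

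The canonical pattern was D at residue 1, D, N or S at residues 3 and 5, G at residue 6 and E or D at residue 12. It matched 2 of these 6 genes, S100a1 and S100a11, and without the glycine it matched 5. S100a10 was the exception. Counting residues from 1 at the start of the loop and taking S100a1 as the reference, S100a10 carried N3C and E12S, at a pair of the calcium-holding positions. S100A10 is known as the family member that stays in the open form without calcium. S100a4, S100a6 and S100a13 departed from the pattern only at the glycine, with G6N, G6Q and G6S. The predicted proteins of all 7 genes had 89 to 101 residues, and identity between pairs ranged from 23.0% to 57.4% with a median of 36% over 21 pairs. The closest pair was S100a1 and S100b, which lay far apart in level, as described next.

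The 6 genes of chromosome 3 were all expressed in C2C12 cells, and S100b was at the edge of detection. S100a4 was at 1072 FPKM in MB (interval 1060.0 to 1085), 734 in MT (725 to 744), 2392 in si-NC (2357 to 2426) and 3164 in si-hnRNPL (3114 to 3213). It was the highest of the 7 in every library and ranked 8, 5, 2 and 1 among the named entries above 0 in the same order of libraries. At the other end, S100b was at 0.185 FPKM in MB (0.108 to 0.262), 0.0997 in MT (0.0444 to 0.155), 0.0599 in si-NC (0 to 0.129) and 0.0924 in si-hnRNPL (0 to 0.199). The width of these intervals corresponds to about 23, 13, 3 and 3 fragments, and both polyA intervals reached 0.

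The members with annexin or CacyBP partners formed the next tier. S100a10 was at 470 FPKM in MB (463 to 477), 299.6 in MT (294 to 305), 736 in si-NC (721 to 751) and 827 in si-hnRNPL (807 to 847). S100a6 was at 342 in MB (337 to 348), 264 in MT (259 to 269), 686 in si-NC (673 to 699.8) and 787 in si-hnRNPL (769 to 805). S100a11 was at 312 in MB (306 to 319), 169 in MT (164 to 173), 1275 in si-NC (1250.3 to 1301) and 1419 in si-hnRNPL (1386 to 1451). In total RNA the order was S100a10, S100a6, S100a11, whereas in both polyA libraries S100a11 stood above S100a10 and S100a6, and all neighbours in these orders had intervals that did not overlap. The 2 kinds of library also differ in RNA selection, kit and time in differentiation medium, so the cause of the different order cannot be told apart.

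S100a1 and S100a13, which lie head to head, were the lowest of the expressed genes. S100a1 was at 25.9 FPKM in MB (24.2 to 27.5), 51.9 in MT (49.6 to 54.2), 70.5 in si-NC (65.7 to 75.4) and 85.6 in si-hnRNPL (79.0 to 92.2). S100a13 was at 47.7 in MB (45.6 to 49.7), 50.4 in MT (48.3 to 52.4), 68.7 in si-NC (64.5 to 72.8) and 70.8 in si-hnRNPL (65.5 to 76.1). S100a13 stood above S100a1 in MB, the intervals of the pair overlapped in MT and in si-NC, and S100a1 stood above S100a13 in si-hnRNPL. The 7 genes together made up 0.551% of the summed FPKM of named entries with a locus over 500 bp in MB, 0.560% in MT, 1.27% in si-NC and 1.44% in si-hnRNPL.

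**Figure D1:**
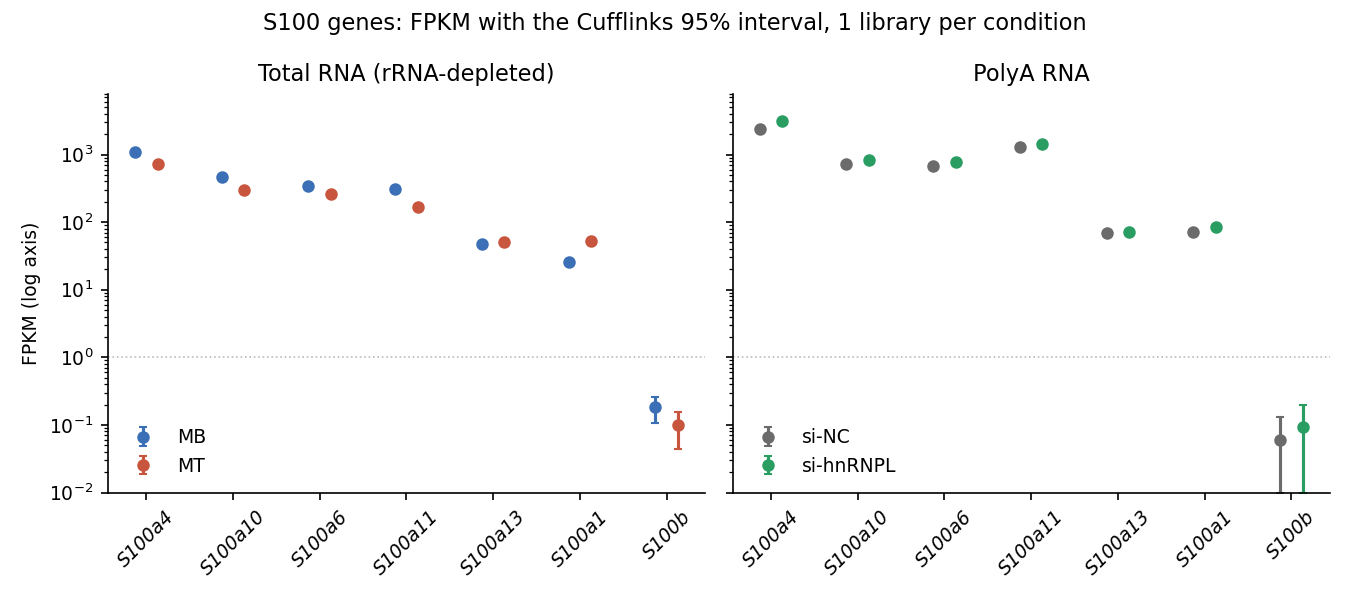
FPKM (log axis) of the 7 S100 genes in the total RNA libraries (left) and the polyA libraries (right), with points for the single library of each condition, bars for the Cufflinks 95% interval and a dotted line at 1 FPKM. The 6 genes of chromosome 3 lie between 25.9 and 3164 FPKM in every library and S100b lies under 0.2, with polyA intervals that reach 0 and are drawn to the bottom of the axis.

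The MT and MB libraries were compared to ask how S100 transcripts differed between myoblasts and myotubes. The change was log2 of the ratio of FPKM + 1, and it was counted at 0.58 or more in either direction, close to the fold rule of the study. By that rule 1 of the 7 genes, S100a1, was higher in MT, where 14.6% of the 11486 named entries with a mean FPKM of at least 1 were higher. S100a10 and S100a11 were lower in MT, 2 of 7 beside 28.9% of all entries. The median log2 change was -0.37 over the 7 genes and -0.21 over all entries, and 6 of the 7, without S100b, were among those entries. When the libraries were rescaled to the same summed FPKM, the split over all entries turned to 33.3% higher and 12.05% lower. In MB 1 microRNA entry held 13.2% of that sum, and a rescaling without microRNA entries gave 24.9% higher and 16.2% lower. Directions are therefore given below with these scalings where they matter. In whole-culture RNA, fewer cells of a kind and less RNA per cell cannot be told apart.

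S100a1, the member tied to calcium release in striated muscle, was 2.01-fold higher in MT, a log2 change of 0.98 (0.87 to 1.09). In the 7 alternatives that act on the value itself, other pseudocounts, centrings and rescalings, it lay between 1.00 and 1.52. Of 3 sarcoplasmic reticulum genes that S100A1 is known to touch, with a mean FPKM of at least 1, 2 were higher in MT. The share over all entries was 14.6%. The ryanodine receptor Ryr1 went from 0.0643 to 7.78 FPKM and the fast calcium pump Atp2a1 from 0.136 to 59.3 FPKM. The slow pump Atp2a2 was at 70.0 and 69.6 FPKM, and phospholamban (Pln) stayed under 0.4. The 8 markers of differentiated muscle were all higher in MT, beside the same 14.6% of all entries, with a summed level of 17.1 FPKM in MB and 1920.4 in MT.

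S100a11, the annexin A1 partner, had the lowest value of the set, a log2 change of -0.89 (-0.94 to -0.83) that left MT at 54.0% of MB. S100a10, the annexin A2 partner, changed by -0.65 (-0.68 to -0.62), with MT at 63.7% of MB. Both stayed below 0 in those 7 alternatives, from -0.89 to -0.33 for S100a11 and from -0.65 to -0.10 for S100a10, but neither passed 0.58 after either rescaling. Their lower levels in MT were therefore counted on the deposited scale and not on every scale.

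S100a4, the motility-linked member, came just short of the count, with a log2 change of -0.55 (-0.57 to -0.52), and the rescalings with and without microRNA entries brought it to 0.0087 and -0.19. For S100a6 the log2 change was -0.37 (-0.41 to -0.34), and the first rescaling turned its sign, to 0.18, while the second left it at -0.02. S100a13, which works in non-classical secretion, had a log2 change of 0.08 (-0.01 to 0.16), and its FPKM intervals in MB and MT overlapped. The change of S100b, -0.11 (-0.23 to 0.01), came from overlapping intervals at levels near 0. On the deposited scale 5 of the 7 genes had intervals in MB and MT that did not overlap, 4 of them lower and 1 higher, where 85.9% of all entries had such intervals, 54.7% lower and 31.1% higher.

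Differences between the expressed members hardly depend on the common scale of a library, which cancels but for the pseudocount. The log2 change of S100a1 exceeded that of S100a13 by 0.90 (0.76 to 1.04) and that of S100a11 by 1.86 (1.74 to 1.98). All 15 pairs among the 6 expressed genes differed in their MT over MB change by more than counting error. That error leaves out the spread between cultures. The closest were S100a4 and S100a10 at 0.10 (0.06 to 0.14). The share over pairs of other genes was not computed, and 85.9% of all entries had MB and MT intervals apart. In si-hnRNPL over si-NC, 6 of the 15 pairs differed in this way.

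S100 transcripts are short, and short transcripts as a class lay below the median of all entries in MT over MB. The 200 protein-coding genes nearest in transcript length to each of the 6 expressed members, whose transcripts have 498 to 719 bases, had median log2 changes between -0.52 and -0.39. S100a4 differed from its length neighbours by -0.04 and S100a6 by 0.05. S100a11 lay 0.37 below them, S100a10 lay 0.25 below, S100a13 lay 0.49 above and S100a1 lay 1.37 above. The part of transcript length in the changes was not tested further.

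The si-hnRNPL and si-NC libraries were compared to ask whether S100 transcripts differed after the hnRNPL siRNA. The targeted transcript itself was at 95.1 FPKM in si-NC (92.7 to 97.5) and 85.9 in si-hnRNPL (83.1 to 88.7), which is 90.4% of the control level, so the library labelled si-hnRNPL had only slightly less Hnrnpl RNA. None of the 7 S100 genes passed 0.58 in either direction, where 1.36% of 11234 entries were higher and 0.863% lower. On the deposited scale all 7 log2 changes were above 0, from 0.04 to 0.40 with a median of 0.17, while 48.0% of all entries were above 0 and their median was -0.01. After rescaling to equal summed FPKM, S100a13 was at -0.06 and the other 6 stayed above 0.

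S100a4 had the highest of these values, a log2 change of 0.40 (0.37 to 0.43) or 1.32-fold, from the second-ranked to the first-ranked named entry. S100a1 changed by 0.28 (0.13 to 0.42), or 1.21-fold. The annexin and CacyBP partners were close to each other, with S100a6 at 0.20 (0.15 to 0.24), S100a10 at 0.17 (0.12 to 0.21) and S100a11 at 0.15 (0.11 to 0.20), and no pair among these 3 differed beyond its interval. For S100a13, at 0.04 (-0.09 to 0.18), and S100b, at 0.04 (-0.13 to 0.21), the FPKM intervals overlapped. The other 5 had intervals apart and higher in si-hnRNPL, where 33.8% of all entries had intervals apart, 14.2% higher and 19.6% lower.

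In this pair short transcripts as a class lay above the median of all entries. The 200 genes nearest in length to the 6 expressed members had median log2 changes between 0.18 and 0.23. Against them, S100a6 lay 0.01 above, S100a10 lay 0.02 below, S100a11 lay 0.08 below and S100a13 lay 0.14 below. S100a1 lay 0.07 above its length neighbours and S100a4 lay 0.17 above. S100a4 exceeded the other members by 0.21 to 0.36 on the log2 scale, with intervals that excluded 0, except S100a1, from which it differed by 0.13 with an interval that held 0 (-0.02 to 0.28). On the deposited scale 7 of 8 markers of differentiated muscle had log2 changes above 0 in this pair, and Myh8 was at -0.003. Their summed level went from 3084 FPKM under the control siRNA to 4652 FPKM. Acta1, Ckm and Mylpf passed 0.58, which is 3 of 8 beside 1.36% of all entries. The part of these markers in the S100 values was not tested.

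**Figure D2:**
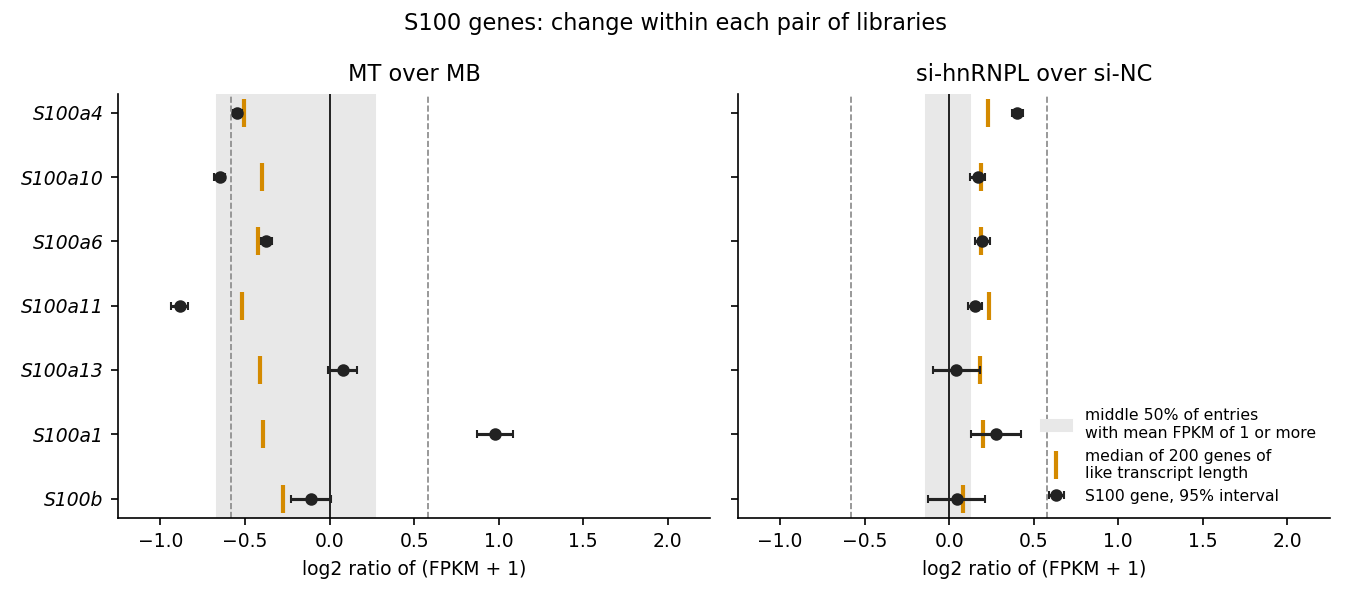
Log2 ratio of FPKM + 1, as deposited, for MT over MB (left) and si-hnRNPL over si-NC (right), with points for the 7 S100 genes, bars for the 95% interval from counting, dashed lines at 0.58 in each direction, a grey band for the middle 50% of named entries and orange marks for the median of 200 genes of like transcript length. S100a1 lies at 0.98 and S100a11 at -0.89 on the left, and on the right all 7 points lie between 0.04 and 0.40.

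The comparisons have different times and RNA kinds and are set side by side only. S100a1 was higher in MT (0.98) and its value under the hnRNPL siRNA was 0.28. S100a4 had -0.55 and 0.40, S100a6 had -0.37 and 0.20, S100a10 had -0.65 and 0.17, and S100a11 had -0.89 and 0.15. S100a1 and S100a13 thus had both values above 0, while S100a4, S100a6, S100a10 and S100a11 had a value below 0 in the first pair and above 0 in the second. The length neighbours of the expressed members had the same signs, with medians of -0.52 to -0.39 in the first pair and 0.18 to 0.23 in the second. These signs are those of the deposited scale, and rescaling to equal summed FPKM turned them for S100a4 and S100a6 in the first pair and for S100a13 in the second. Centring on transcript length turned S100a6 in the first pair (0.05). In the second pair it turned S100a10 (-0.02), S100a11 (-0.08) and S100a13 (-0.14).

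On mouse chromosome 3 the S100 genes lie in a pair of groups. In the deposited mm9 loci, 12 S100 entries from S100a1 to S100a9 span 185 kb, and S100a11 and S100a10 form a second stretch of 44.2 kb that begins 2825 kb further on. S100b is alone on chromosome 10. Of 17 further family genes on the list, which include S100-fused genes such as Flg2 and Hrnr, 15 were in the tables. Of these, 12 were under 1 FPKM in both MB and MT. A mean FPKM of at least 1 was held by 2 of the 15, beside 11486 of the 24850 named entries. In the first group S100a1 and S100a16, both near its left end, were counted as higher in MT. S100a16 was at 35.3 FPKM in MB and 64.6 in MT, a log2 change of 0.85. Between them lie S100a13, at 0.08, and S100a14, which was under 1 FPKM, at 0.20, and neither was counted. Around 90 kb from S100a1, S100a3 went from 5.35 to 1.39 FPKM, a log2 change of -1.41. Beside it S100a4, S100a6 and S100a5, which was under 1 FPKM, had values below 0 on the deposited scale, as had 7122 of 11486 entries. S100a7a went from 1.70 to 0.197 FPKM. The myeloid genes S100a8 and S100a9 were at or near 0, and S100a2, named here after its values were seen, was listed at 0 in all 4 libraries.

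**Figure D3:**
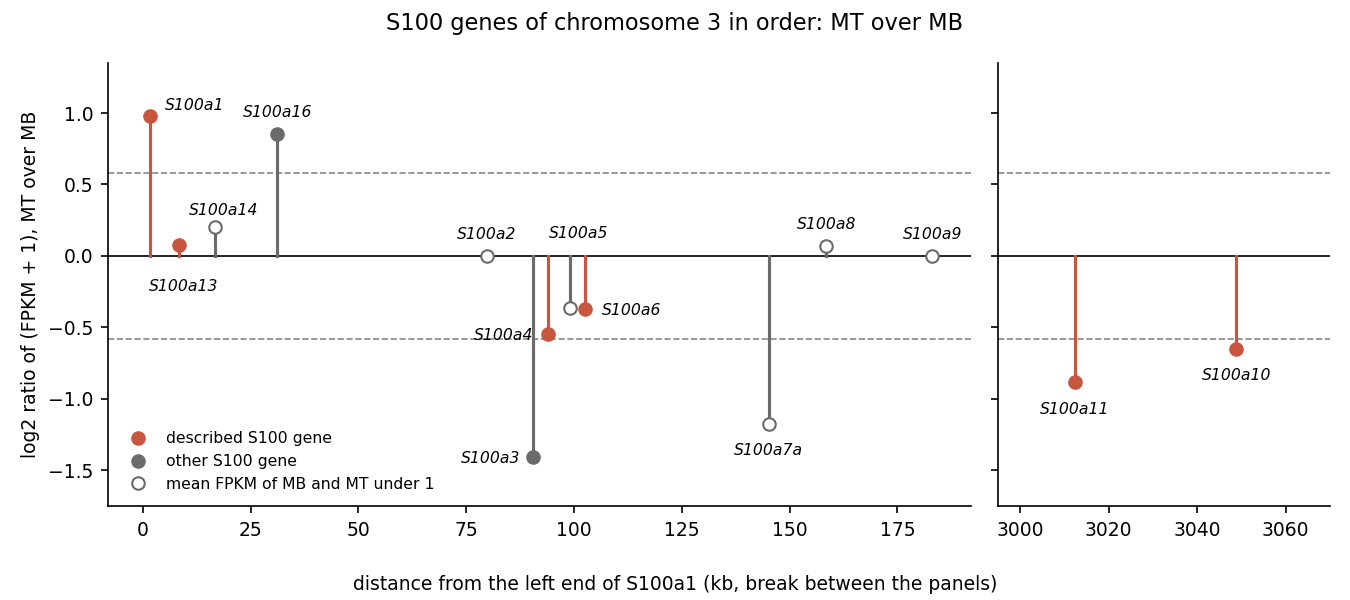
Log2 ratio of FPKM + 1, MT over MB, of the S100 genes of chromosome 3 against their distance in kb from the left end of S100a1, with the 6 described genes in red, other S100 genes in grey and open points for a mean FPKM under 1. S100a1 (0.98) and S100a16 (0.85) lie above the upper dashed line at 0.58, and S100a3 (-1.41), S100a7a (-1.17), S100a11 (-0.89) and S100a10 (-0.65) lie below the lower one.

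S100a1 and S100a13 are transcribed away from each other. Between their deposited loci lie 104 bases, and 42 bases separate the starts of their mm9 GENCODE transcripts. The stretch of 42 bases is shown because the changes on its sides differed by 0.90.
S100a1 to S100a13 (mm9 chr3:90318315-90318356, plus strand): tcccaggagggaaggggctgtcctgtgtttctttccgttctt
The stretch held no E-box (CANNTG) and no AP-1 motif (TGAGTCA) on either strand. The gene on the far side of S100a1, Chtop, which encodes a chromatin target of the methyltransferase Prmt1, was at 59.9 FPKM in MB and 45.8 in MT, a log2 change of -0.38. Within 20 kb of the members the total RNA tables listed 15 assembled units without a gene name. None of them overlapped a member, and 5 lay inside Chtop, at 3.04 to 4.93 FPKM in MB and 4.45 to 8.86 in MT. Dip2a, the neighbour of S100b, went from 15.7 to 4.93 FPKM, a log2 change of -1.50, while S100b was near 0 on both sides.

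Promoters were taken from RefSeq for GRCm38.p6, 250 bases before to 50 after each start, and 6 of the 7 members were matched. S100a10, which was counted as lower in MT on the deposited scale, was not matched and its window was not searched. The muscle regulatory factors bind E-boxes and AP-1 factors bind TGAGTCA, which on the other strand reads TGACTCA. An E-box of any kind was in 4 of the 6 windows and in 72.3% of 32851 promoters. The E-box forms CAGCTG and CACCTG, which CANNTG includes, were in none of the 6 and in 16.3% and 20.2% of promoters. The windows of S100a1 and S100a13 overlap, so they are not separate cases. TGAGTCA was in 1 of the 6, S100a11, and in 5.20% of all promoters. The S100a11 window held it at 2 places, which begin 136 and 38 bases before the start. The 250 bases before the start are shown with both matches in capitals, since S100a11 had the lowest MT over MB value of the 7.
S100a11 (GRCm38.p6 chr3:93520246-93520495, plus strand): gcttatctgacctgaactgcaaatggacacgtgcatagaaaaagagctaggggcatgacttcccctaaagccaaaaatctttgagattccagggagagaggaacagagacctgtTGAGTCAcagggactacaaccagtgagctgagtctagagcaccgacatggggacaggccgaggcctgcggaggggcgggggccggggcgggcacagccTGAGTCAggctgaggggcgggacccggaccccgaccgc

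Known partners of S100 proteins were followed as a list of 41 genes, of which 40 were in the tables. Of the 31 with a mean FPKM of at least 1 in MB and MT, 6 were higher in MT and 10 lower, with a median log2 change of -0.26 beside -0.21 over all entries. In the siRNA pair 32 were at that level, none passed 0.58, and the median was -0.03. The shares in MT over MB, like the medians, lay near those of all entries.

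Among the annexins, membrane-binding proteins that S100 dimers bridge, Anxa2, Anxa3 and Anxa5 were lower in MT and Anxa11 was higher. These were 3 lower and 1 higher of 8, beside 28.9% and 14.6% of all entries. They were counted on the deposited scale and not recounted after rescaling. Anxa2 went from 582 to 252 FPKM, a log2 change of -1.20, which is larger than that of its partner S100a10. The FPKM ratio of S100a10 to Anxa2 was 0.808 in MB, 1.19 in MT, 1.44 in si-NC and 1.49 in si-hnRNPL. Anxa1, the S100a11 partner, went from 329.8 to 229 FPKM, a log2 change of -0.52, and the ratio of S100a11 to Anxa1 was 0.947 in MB, 0.736 in MT, 2.08 in si-NC and 2.47 in si-hnRNPL. The first ratio was higher in MT than in MB and the second was lower.

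On the deposited scale, 6 of 13 other intracellular partners were lower in MT and none higher, beside 28.9% and 14.6% of all entries. Rescaling to equal summed FPKM moved the shares over all entries to 12.05% lower and 33.3% higher. This list was not recounted on that scale. Cacybp, the S100A6 adaptor, went from 65.8 to 37.0 FPKM, and Trp53, the p53 gene, from 82.7 to 35.9. Iqgap1, a cytoskeletal scaffold, and the non-muscle myosin Myh10 were also lower, with Ppp5c and Stub1. The non-muscle myosin Myh9, the S100A4 target, went from 208 to 140.4 FPKM, a log2 change of -0.57 just short of the count, and the ratio of S100a4 to Myh9 was 5.15 in MB and 5.23 in MT. In the siRNA pair that ratio was 9.93 for the control and 13.4 for si-hnRNPL, while Myh9 was at 241 and 235 FPKM.

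Of 4 receptor genes with a mean FPKM of at least 1, 2 were higher in MT and none lower. The shares over all entries were 14.6% and 28.9%. In the plasmin system 1 of 3 was higher and 1 lower. The RAGE gene Ager was under 0.27 FPKM in every library, and Tlr4, another receptor of the list, went from 10.8 to 32.5 FPKM in MT. Egfr, the epidermal growth factor receptor, went from 11.5 to 18.3 FPKM. Bsg was at 223 FPKM in MB and 195 in MT, and Fgfr1 at 21.6 and 31.6. The cargo genes of S100a13, Fgf1, Il1a and Syt1 (which encodes a protein of the same secretory complex), stayed under 0.2 FPKM in all libraries. On the cell surface the S100A10 and annexin A2 complex is known to bind tissue plasminogen activator and plasminogen. Plat, which encodes that activator, went from 18.9 to 32.9 FPKM, whereas Plaur, the urokinase receptor, went from 70.0 to 3.55, a log2 change of -3.96. Plau, which encodes urokinase, was at 44.6 FPKM in MB and 46.3 in MT, and at 119.9 in si-NC and 88.5 in si-hnRNPL.

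Other EF-hand genes gave the family's wider setting. Of 25 with a mean FPKM of at least 1, 6 were higher in MT and 6 lower, with a median log2 change of -0.15, beside 14.6% higher, 28.9% lower and a median of -0.21 over all entries. The higher ones were the troponin C genes Tnnc1 and Tnnc2, parvalbumin (Pvalb), the muscle calpain Capn3, Efhd1 and Calml4. Tnnc1, the calcium sensor of slow muscle filaments, went from 5.91 to 451 FPKM and Tnnc2, its fast counterpart, from 0.499 to 211. The lower ones were the calmodulin genes Calm2 and Calm3, the calpain Capn2, sorcin (Sri), Efhd2 and Ncs1. Both counts are on the deposited scale, and this list was not recounted after rescaling. In the siRNA pair Tnnc1 (677 to 1047 FPKM) and Tnnc2 (265 to 408 FPKM) were higher and none of the 24 tested was lower, beside 1.36% and 0.863% of all entries.

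**Figure D4:**
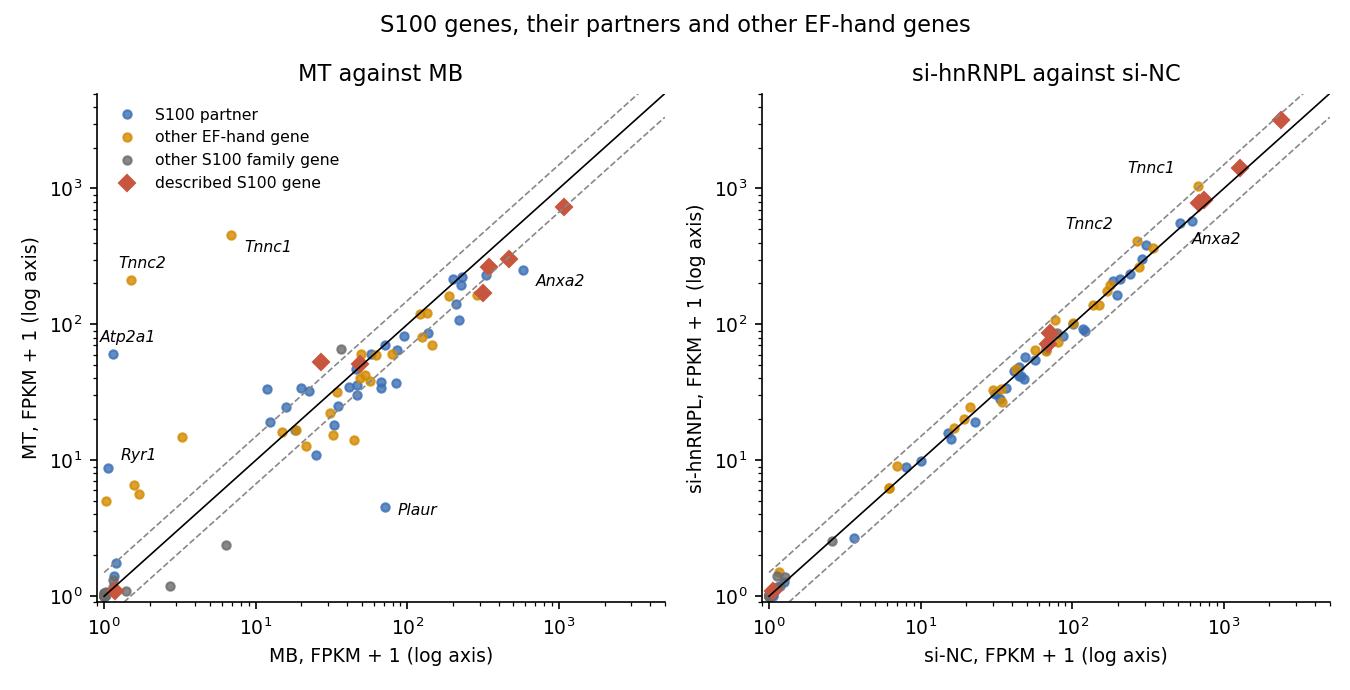
FPKM + 1 (log axes) of the 7 S100 genes (red diamonds), their partners (blue), other EF-hand genes (orange) and other S100 family genes (grey), with MT against MB on the left and si-hnRNPL against si-NC on the right, a line of equality and dashed lines at a log2 difference of 0.58. On the left Tnnc1, Tnnc2, Atp2a1 and Ryr1 lie far above the line and Plaur lies far below it, while on the right Tnnc1 and Tnnc2 lie just past the upper dashed line.

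Markers of muscle cells and of cell types in which S100 genes are best known were looked up. Of the 5 myoblast markers, Cdh15, Des, Myod1 and Vcam1 were counted as higher in MT, with log2 changes of 0.83 to 1.24. This is 4 of 5, where 14.6% of all entries were higher on the deposited scale and 33.3% after rescaling to equal summed FPKM. Myf5 was at 13.8 FPKM in MB and 13.6 in MT. Of the glial markers, Gfap was at 0.0283 FPKM in MB, 0.0270 in MT and 0.0113 in si-NC and was listed at 0 in si-hnRNPL. Sox10 was at 0.0142 FPKM in MB and 0.0271 in MT and was listed at 0 in both polyA libraries. The summed level of the 5 myeloid markers was 0.563 to 1.26 FPKM. Of the fibroblast list, Col3a1 went from 156 to 329 FPKM in MT, a log2 change of 1.07. Col1a1 was at 14.7 FPKM in MB, 15.9 in MT, 137 in si-NC and 140.3 in si-hnRNPL, and Pdgfra at 2.14, 3.38, 3.80 and 4.91, while Thy1 and Tcf21 were at or near 0. Of the chondrocyte and adipocyte markers, Sox9 alone exceeded 1 FPKM.

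The genes whose pattern over the 4 libraries was most like each member were found among 10055 named entries, by the Euclidean distance between log2(FPKM + 1) values centred on each gene's mean. The nearest to S100a1 were Anpep (distance 0.04), C1galt1c1 and Thra. The nearest to S100a6 was Minos1 (0.03), and Eef1a1, which encodes a translation elongation factor, was the third on its list (0.08). S100a10 was nearest to Rhog, the ribosomal gene Rplp2 and Stub1, and S100a13 to Chmp2a, Rab11a and Sardh. The nearest genes to S100a4 (Oaz1-ps, Acat3, Rnasek) and S100a11 (Fam98b, Eif1, Polr2a) lay further off, with first distances of 0.20 and 0.19. S100b, flat at this scale, was nearest to Dcun1d2, Hadhb and Zfp868. Between members the smallest distance was 0.30, for S100a6 and S100a10, and that for the head-to-head pair S100a1 and S100a13 was 0.86. These distances include the difference between total and polyA libraries, which was not the same for all genes. S100a11 was at 169 FPKM in MT and 1275 in si-NC, whereas S100a13 was at 50.4 and 68.7.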

How the data were processed

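Total RNA was profiled in MB and MT cells and polyA RNA in si-NC and si-hnRNPL cells, with 1 library per condition, and groups were taken from the sample titles. According to the study's methods the authors trimmed reads, aligned them to mm9 with TopHat and estimated abundance with Cufflinks, and they deposited FPKM per gene with its 95% interval. Total counts per library are not in these tables, so the fragments behind a value were inferred from the width of its interval. The total RNA protocol kept strand, whereas the polyA kit is not stated to.

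Log2 changes used FPKM + 1, and their intervals combined both FPKM half-widths in quadrature. They were run on simulated counts with counting error alone, which does not bear on read assignment or the spread between cultures. No p-value was computed. Entries with a mean FPKM of at least 1 formed the background. Members and lists were chosen with earlier results of these data known. Named genes were the members, Hnrnpl, list genes past the fold or among the 6 highest of their list with at least 1 FPKM, and the 3 nearest by pattern. Beyond this rule, list genes under 1 FPKM and neighbours of the members were named after their values were seen, and not every list gene that met it is named. The calcium loop of S100b and some glial markers are not reported here. Alternatives changed the pseudocount, filter, scale, fold and overlap rule. Python 3 with numpy, pandas and Biopython was used.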

Additional observations from a re-analysis of the deposited data

How the results depend on the processing

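No paired analysis was possible because each condition had 1 library. Of the alternatives, 7 act on a gene's value and the others only on the background, the fold or the count. In those 7, in MT over MB, S100a1 and S100a13 stayed above 0 and S100a10 and S100a11 below 0, while S100a4 and S100a6 were below 0 in 6 and 5. The median log2 change of the 7 genes, -0.37, became -0.51 and -0.55 with pseudocounts of 0.1 and 0.01, which weigh S100b more, -0.46 with a mean FPKM of at least 5, which leaves S100b out, -0.16 when centred on the median of all entries and 0.0087 when rescaled to equal summed FPKM. In MB, 13.2% of that sum came from 1 entry, Mir5098, so a rescaling without microRNA entries was added after seeing the data, and it gave -0.072. Centring on genes of like transcript length or GC, also added after seeing the data, gave 0.053 and -0.11. The number lower, 2, became 3 with a pseudocount of 0.01, where S100b was at -0.83, became 1 when centred on all entries or on GC, and 0 when rescaled in either way, centred on length or counted at a log2 change of 1. The number higher, 1, became 2 when rescaled to equal summed FPKM, with S100a13 at 0.62, and 0 at a log2 change of 1. Rescaling shifted MT over MB by 0.55, or by 0.35 without microRNA entries, and centring moved the split of all entries to 21.1% higher and 19.4% lower. In si-hnRNPL over si-NC the median, 0.17, became 0.066 under either rescaling and -0.020 when centred on length, and no gene passed 0.58 in any setting. Depth limits S100b alone, whose values rest on 23 fragments or fewer.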
